A study of Mus musculus with 6 samples.

Results

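A set of 8 genes known from Schwann cells and nerve was followed in RNA of whole mouse aorta: Sox10, S100b, Mbp, Pmp22, Mal, Prx, Ncam1 and Ngfr. They were picked by gene symbol, all 8 had a row among the 18749 gene rows, and all 8 passed the filter on low counts. All mice were Apoe-/-, which lack apolipoprotein E, and all were infused with angiotensin II for 28 days, a treatment that raises blood pressure and gives rise to aortic aneurysms in these animals. Recipients of Apoe-/- marrow served as controls (3 libraries), and the other 3 libraries came from recipients of Apoe-/-Sept2C111A marrow, whose septin-2 gene, Sept2, is altered (Sept2C111A recipients). Both groups thus lack apolipoprotein E in host and graft, and the sources used here give neither age nor sex. The graft supplies blood cells, whereas the cells of the aortic wall and its nerves belong to the Apoe-/- host. The question for these genes is how much nerve-related RNA each aortic sample held and whether that differed between the groups.

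Schwann cells are the glia of peripheral nerve. Some wrap axons in myelin, and others, the Remak cells, hold bundles of thin axons without myelin. Sympathetic fibres run in the outer coat of the aorta, release noradrenaline and are mostly of the thin kind, and their cell bodies lie in ganglia next to the vessel, so that most neuronal messenger RNA is found in ganglia rather than in the wall. The transcription factor Sox10 keeps Schwann cells and other neural crest glia in their fate, and S100b encodes a calcium-binding protein of glia that fat and cartilage cells make too. Mbp, Pmp22, Mal and Prx encode proteins of the myelin sheath or its outer membrane, while Ncam1, an adhesion molecule, and Ngfr, the p75 receptor for neurotrophins, mark Schwann cells without myelin, with Ngfr also found on sympathetic neurons. Several of these genes are active outside nerve as well: Pmp22 in many mesenchymal cells, Ncam1 in muscle, and Mbp, through its Golli transcripts, in blood cells. In whole tissue, fewer cells of a type and less RNA per cell cannot be told apart.

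Upstream sequences are shown for the genes that the results below turn on. Ngfr differed most between libraries, Th, which encodes the enzyme that starts noradrenaline synthesis, differed with it, and Pmp22 has the most start sites of the 5 members in the promoter table, so that its count adds up transcripts of several promoters. The RefSeq promoter table of build GRCm38.p6, the assembly also called mm10, held entries for 5 of the 8 genes, S100b, Prx, Pmp22 (4 start sites), Mal and Ngfr, and for Th and Dbh. Each line gives the 150 bases just before the start site, 5′ to 3′ on the gene's strand, and capitals mark GC boxes (GGGCGG on either strand, the motif of Sp1) or, in Th, a cyclic AMP response element (TGACGTCA on either strand).
Ngfr, chr11:95587699-95587848, minus strand: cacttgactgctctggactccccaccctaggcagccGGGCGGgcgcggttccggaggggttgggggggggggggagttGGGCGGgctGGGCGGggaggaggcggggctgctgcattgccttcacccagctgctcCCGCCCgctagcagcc
Th, chr7:142899996-142900145, minus strand: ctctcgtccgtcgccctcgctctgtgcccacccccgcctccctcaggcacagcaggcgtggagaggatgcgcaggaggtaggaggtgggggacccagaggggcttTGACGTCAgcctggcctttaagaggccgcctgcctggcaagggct
Pmp22, the most upstream start site, chr11:63128832-63128981, plus strand: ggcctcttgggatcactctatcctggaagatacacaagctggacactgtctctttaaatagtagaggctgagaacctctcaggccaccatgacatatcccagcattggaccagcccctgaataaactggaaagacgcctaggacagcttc
Pmp22, the next start site, chr11:63131307-63131456, plus strand: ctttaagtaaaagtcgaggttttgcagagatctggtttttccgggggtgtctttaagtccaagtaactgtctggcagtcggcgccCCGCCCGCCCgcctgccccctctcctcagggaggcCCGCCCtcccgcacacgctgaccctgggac
The window searched was the 250 bases before each RefSeq start site. In the GENCODE annotation, used for the gene positions below, Ngfr and Th begin further upstream, at 95587735 and 142931128. The last bases printed for Ngfr, with its last GC box, and the whole stretch of Th thus lie within those spans. GC boxes were found 4 times before Ngfr and 3 times before the start site of Pmp22 printed last, where a pair of matches overlaps, and not before the most upstream one. A GC box is held by 32.7% of all 32851 windows of this length. The cyclic AMP response element, in 1.55% of all windows, begins 45 bases before the Th start site, and no window of the 5 members holds it. The single GC box of Th lies outside the stretch printed. These matches describe the letters only.

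Between 17082719 and 20494928 expected counts were assigned to genes in each library, and a count of 0 allows up to 0.167 CPM (read counts scaled to a common library total, with library sizes adjusted by TMM), taking 3 counts as the limit. The smooth muscle genes Myh11 and Acta2, which define the aortic media, were present throughout, Myh11 at 714 to 4857 CPM and Acta2 at 2610 to 9173 CPM, with control 3 lowest in both. Intervals and limits of this kind cover counting error only. Of the genes that define Schwann cells, Sox10 and S100b were found in every library, whereas Gjb1, a gap junction gene of myelinating Schwann cells, was at 0 in 3 of 6 libraries. Library control 1 stood apart in neuronal genes and in some myeloid genes, as described below, and results for the 8 genes are therefore given with and without it.

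Across the 8 genes the groups did not move in one direction. Mean levels of S100b, Prx, Pmp22 and Ncam1 were higher in Sept2C111A recipients, and those of Sox10, Mbp, Mal and Ngfr were lower. None of the 8 passed edgeR's quasi-likelihood test after Benjamini-Hochberg adjustment over 14466 genes, with adjusted p from 0.316 to 0.452, and 0.00% of all genes passed it. At an unadjusted p under 0.05, a level that 15.0% of all genes reached, the count was 3 higher (S100b, Prx and Pmp22), where 6.17% of all genes were, and 0 lower, where 8.83% were. The 3 Sept2C111A libraries lay above all 3 control libraries for 2 of the 8, Prx and Pmp22, against 11.2% of all genes in that direction, 11.9% in the other and 23.1% in either. DESeq2 called 0 of the 8, with no p-value for Ngfr, and 3.99% of all genes. Limma-voom with weighted libraries called 0 of the 8 and 0.00% of all genes. When DESeq2 was rerun with 1 library left out, a check chosen after seeing the data, it called 4 of the 8 without control 2 (Mbp and Ngfr lower, Prx and Ncam1 higher), where 12.0% of all genes were called, and 2 without control 3 (S100b higher, Ngfr lower), where 2.36% were. It called 0 of the 8 without control 1 or without Sept2C111A library 1, 2 or 3, where it called 2.28%, 1.79%, 4.60% and 0.906% of all genes. Both calls of Ngfr came from fits that kept control 1, which held 28.0 CPM against at most 1.89 CPM elsewhere.

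**Figure D1:**
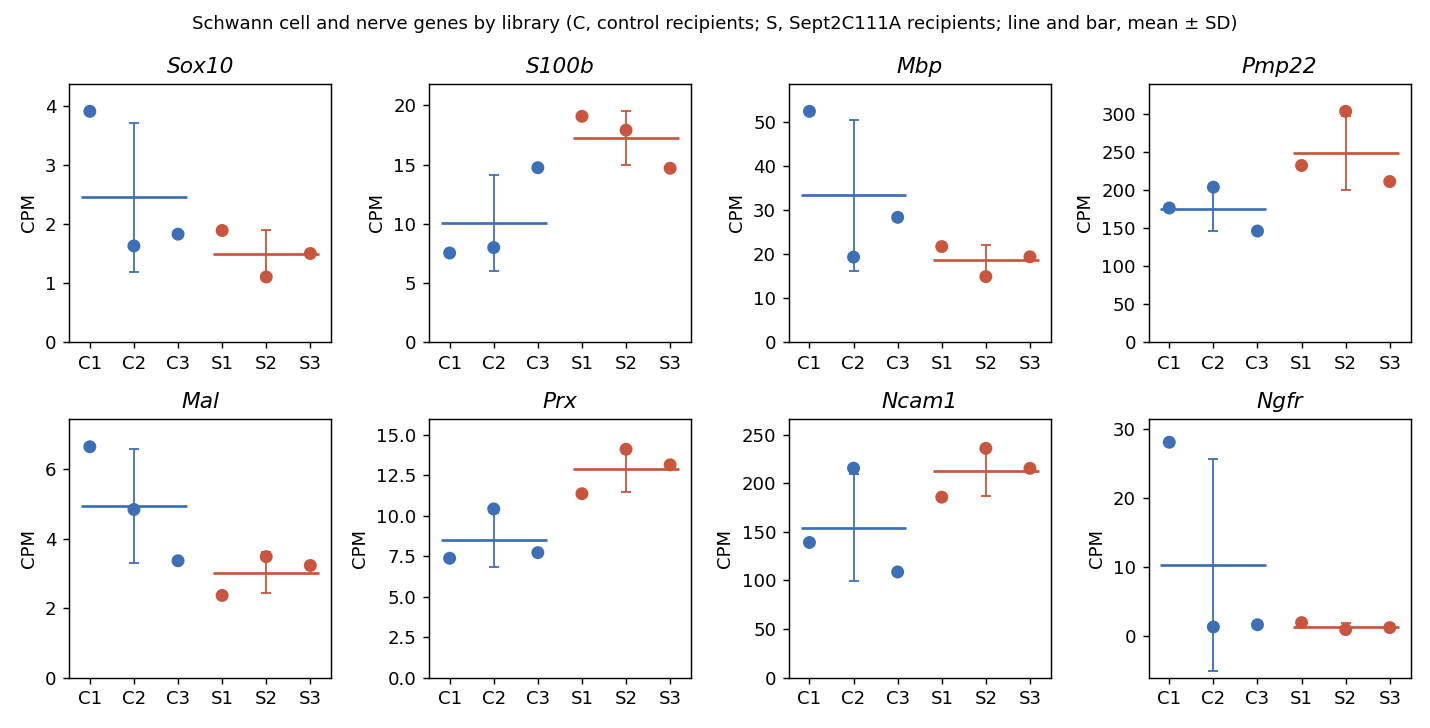
Level of each of the 8 genes in CPM (y axis, a scale of its own for each gene) in the 3 control libraries (C1 to C3, blue) and the 3 Sept2C111A libraries (S1 to S3, red), with the group mean as a line and the SD as a bar. C1 is the highest library for Sox10, Mbp, Mal and Ngfr, at 28.0 CPM for Ngfr against at most 1.89 CPM elsewhere, while Prx and Pmp22 are higher in every S library than in any C library.

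Sox10 (chromosome 15, 79154908 to 79165240, mm10, minus strand) was among the least abundant of the 8 per kilobase of exon, at 0.805 CPM per kilobase in the control mean and 0.492 in the Sept2C111A mean, where Ngfr was lower still at 0.382. Sox10 stood at 3.91, 1.63 and 1.83 CPM in controls 1, 2 and 3 and at 1.89, 1.11 and 1.50 CPM in Sept2C111A libraries 1, 2 and 3. Control 1 was high, and the other 5 libraries lay close together with the groups overlapping. These levels rest on 20 to 70 reads, and the exact 95% binomial interval of control 1, 3.05 to 4.94 CPM, lay above that of the next library, Sept2C111A library 1, at 1.32 to 2.62 CPM. The group means were 2.46 ± 1.26 and 1.50 ± 0.39 CPM (SD, n = 3 each), and the log2 ratio of Sept2C111A to control recipients fitted by edgeR was -0.71 (SE 0.45, adjusted p = 0.452). Without control 1 it was -0.20 (SE 0.38).

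S100b (chromosome 10, 76253853 to 76261159, plus strand) had the opposite order. Controls 1 and 2 held 7.54 and 7.99 CPM, control 3 held 14.7 CPM, and the Sept2C111A libraries held 19.1, 17.9 and 14.7 CPM. Control 3 was level with Sept2C111A library 3, so that the groups touched, and control 1, the library richest in Sox10, was the poorest in S100b. The means were 10.1 ± 4.03 and 17.2 ± 2.27 CPM, for a log2 ratio of 0.77 (SE 0.30, adjusted p = 0.328 by edgeR). Leaving out control 3 raised the log2 ratio to 1.15, and DESeq2, which called 2.36% of all genes in that fit, then gave an adjusted p of 0.000705. Fat genes had the direction of S100b: all 10 adipocyte genes had higher fitted levels in Sept2C111A recipients, with a median log2 ratio of 0.97 and 0 passing by edgeR or DESeq2. Their summed level was highest in Sept2C111A library 1, as was S100b, at 6603 CPM, and lowest in control 3, at 1592 CPM, where S100b was the highest of the controls. Of the 8 cartilage genes 5 were tested and all 5 had lower fitted levels in Sept2C111A recipients, with 0 passing. The part of fat and cartilage in S100b was not tested.

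Among the myelin genes, Mbp (chromosome 18, 82475146 to 82585637, plus strand), whose product holds the layers of compact myelin together, was at 52.5, 19.4 and 28.4 CPM in the controls and at 21.8, 14.9 and 19.4 CPM in the Sept2C111A libraries. Controls 1 and 3 were above all Sept2C111A libraries and control 2 was level with Sept2C111A library 3. The fitted log2 ratio was -0.84 (SE 0.38, adjusted p = 0.351 by edgeR), and -0.34 (SE 0.24) without control 1. Macrophage and other myeloid genes were uneven across the libraries. The summed level of 10 macrophage markers was 2364, 1579 and 2140 CPM in the controls and 1635, 1269 and 1135 CPM in the Sept2C111A libraries, but the sum in control 1 was carried by Itgam, an integrin of neutrophils and monocytes, at 985 CPM against 48.0 to 126 CPM elsewhere, and by Cd14, at 477 CPM against 30.4 to 53.9 CPM. Csf1r, Adgre1, C1qa, C1qb and C1qc were lowest in control 1. Counts per gene do not separate the myelin transcripts of Mbp from its Golli transcripts, and the part of blood cells in its level was not tested.

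Pmp22 (chromosome 11, 63128982 to 63159547, plus strand), a membrane protein of compact myelin whose dosage is critical in inherited neuropathy, was the most abundant of the 8 per kilobase of exon, at 74.5 and 105.8 CPM per kilobase in the group means, against 0.805 and 0.492 for Sox10. It stood at 176, 204 and 146 CPM in the controls and at 232, 303 and 211 CPM in the Sept2C111A libraries. The groups did not overlap, although control 2 and Sept2C111A library 3 were close. For Pmp22 the log2 ratio was 0.50 (SE 0.20, adjusted p = 0.331 by edgeR), and it ran from 0.34 without Sept2C111A library 2 to 0.63 without control 2.

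Prx (chromosome 7, 27499324 to 27520214, plus strand) encodes periaxin, which ties the Schwann cell membrane to the surrounding basal lamina. Its levels were 7.37, 10.4 and 7.71 CPM in the controls and 11.3, 14.1 and 13.1 CPM in the Sept2C111A libraries, again without overlap. The means were 8.50 ± 1.67 and 12.9 ± 1.39 CPM, for a log2 ratio of 0.60 (SE 0.21, adjusted p = 0.316 by edgeR), the smallest adjusted p of the 8. An exon of Gm15541 overlaps Prx on the other strand, and the strand setting of the counting is not given in the sources used here, so reads of the pair cannot be told apart. Drp2, which encodes the partner that periaxin binds, was at 1.72 to 4.01 CPM, with a log2 ratio of -0.45 (SE 0.36).

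Mal (chromosome 2, 127633226 to 127656695, minus strand), a proteolipid of myelin and of sorting membranes that T cells also make, was at 6.64, 4.84 and 3.36 CPM in the controls and at 2.36, 3.48 and 3.23 CPM in the Sept2C111A libraries. Control 3 lay just below Sept2C111A library 2, and the log2 ratio was -0.71 (SE 0.34, adjusted p = 0.363 by edgeR), or -0.43 without control 1. Of the 10 T and NK cell genes 7 were tested, of which 4 had lower and 3 higher fitted levels, with a median log2 ratio of -0.64 and 0 passing by either tool. Their summed level was highest in Sept2C111A library 1, where Mal was lowest, at 25.6 CPM, of which Cd4 gave 12.2 CPM. The part of T cells in Mal was not tested.

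Of the surface proteins, Ncam1 (chromosome 9, 49502136 to 49798925, minus strand) was at 139, 215 and 109 CPM in the controls and at 186, 236 and 215 CPM in the Sept2C111A libraries. Control 2 was level with Sept2C111A library 3, and the spread within the controls, an SD of 55.0 CPM, was nearly as large as the difference of the means, 154 and 212 CPM. Its log2 ratio was 0.46 (SE 0.27, adjusted p = 0.423 by edgeR). Gm11149 shares exon sequence with Ncam1 on the other strand, which limits this value as it does for Prx. Smooth muscle genes moved with it in part: summed over 10 genes they were at 17411, 18837 and 6067 CPM in the controls and at 17436, 24019 and 16026 CPM in the Sept2C111A libraries, so that both Ncam1 and smooth muscle were lowest in control 3 and highest in Sept2C111A library 2. Pmp22 shared these extremes. What smooth muscle contributed to Ncam1 and Pmp22 was not tested.

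Ngfr (chromosome 11, 95568818 to 95587735, minus strand) gave the largest difference of the 8, and a single library set it. Control 1 held 28.0 CPM, or 502 expected counts, against 1.26 and 1.58 CPM in controls 2 and 3 and 1.89, 0.884 and 1.17 CPM in the Sept2C111A libraries. Outside control 1 the groups overlapped fully. The means of 10.3 ± 15.4 and 1.31 ± 0.52 CPM gave a log2 ratio of -2.96 (SE 1.28, adjusted p = 0.346 by edgeR), which was -0.10 (SE 0.46, adjusted p = 0.925) without control 1. DESeq2 gave Ngfr no p-value with all 6 libraries.

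**Figure D2:**
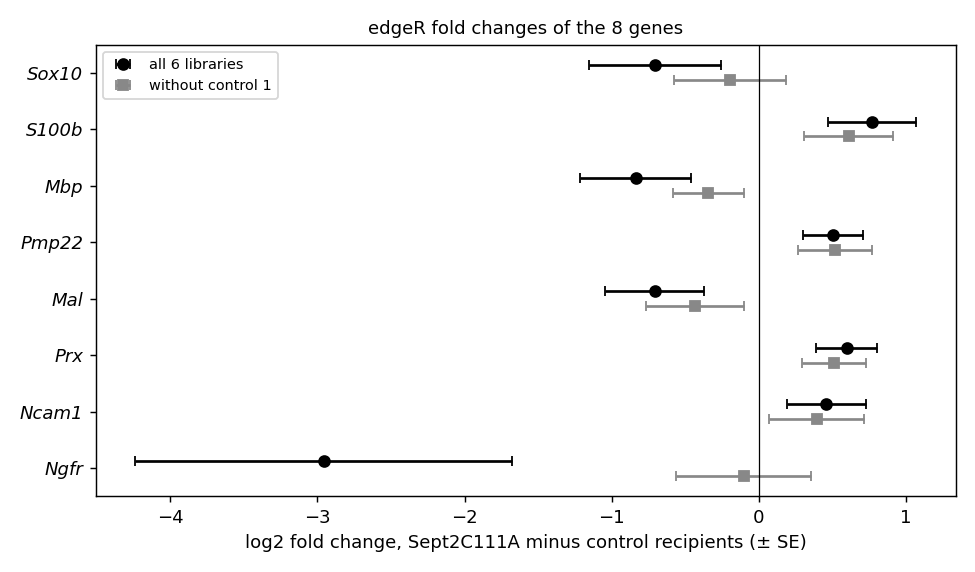
Log2 fold change of each of the 8 genes (x axis, Sept2C111A minus control recipients, bars are the SE from edgeR) with all 6 libraries (black circles) and without control 1 (grey squares). Ngfr moves from -2.96 to -0.10 and Mbp from -0.84 to -0.34, while Prx and Pmp22 stay near 0.5 to 0.6.

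The genes of neurons and axons set control 1 apart in the same way. Of the 24 genes of this list 21 were highest in control 1, where 26.2% of all genes with a read were. Their summed level was 497.5 CPM in control 1, against 140.2 and 84.1 CPM in controls 2 and 3 and 107.5, 149.6 and 75.4 CPM in the Sept2C111A libraries. For 11 of the 24, control 1 held at least 5 CPM and at least 10 times the level of every other library, as did 0.416% of all rows. The same rule was met by 0.0800% of rows in control 3, 0.139% in Sept2C111A library 3, 0.00533% in Sept2C111A library 1 and 0.00% in each of control 2 and Sept2C111A library 2.

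The enzymes and carriers of noradrenaline were the clearest, and most of the genes named here were singled out after their values were seen. Th was at 23.8 CPM in control 1, or 426 counts, and at 0, 0, 0.210, 0.0553 and 0 CPM in the other libraries in the order used above. Dbh, which turns dopamine into noradrenaline, was at 50.9 CPM in control 1 and at most 0.736 CPM elsewhere. Slc6a2, the noradrenaline transporter of the cell membrane, was at 81.3 CPM in control 1 and at 5.14 to 7.24 CPM in the other 5. Slc18a2, the transporter that fills synaptic vesicles, was at 26.6 CPM in control 1 and 3.07 to 4.78 CPM elsewhere. Transcripts found in neuronal cell bodies went with them: the transcription factor Phox2a was at 1.90 CPM in control 1 and at most 0.148 CPM elsewhere, and Chrna3, a nicotinic receptor subunit of autonomic neurons, at 9.94 CPM and at most 0.210 CPM. Synaptic and filament genes followed, with Syt1 at 29.1 CPM, Snap25 at 22.0 CPM and Prph at 21.8 CPM in control 1, and at most 0.578, 0.223 and 0.939 CPM in any other library.

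Lists added after these values had been seen described the kind of neuron. The 10 noradrenergic genes were all highest in control 1, summing to 243.6 CPM there and to 11.1 to 13.5 CPM in the other 5 libraries. The 7 genes of other peripheral neurons, cholinergic and sensory ones among them, summed to 0.447 CPM in control 1. Nos1, which is not particular to these neurons, gave 0.279 CPM of that sum, and Scn10a, Slc5a7 and Slc17a6 were at 0. In control 3, Slc5a7 reached 9.35 CPM. The 5 adrenal genes summed to 1.67 CPM in control 1 and 1.10 to 2.36 CPM elsewhere, and Pnmt, the adrenaline-making enzyme of the adrenal medulla, stood at 0.167 CPM in control 1, or 3 counts. Whether tissue other than the aortic wall was taken along with control 1 was not tested.

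**Figure D3:**
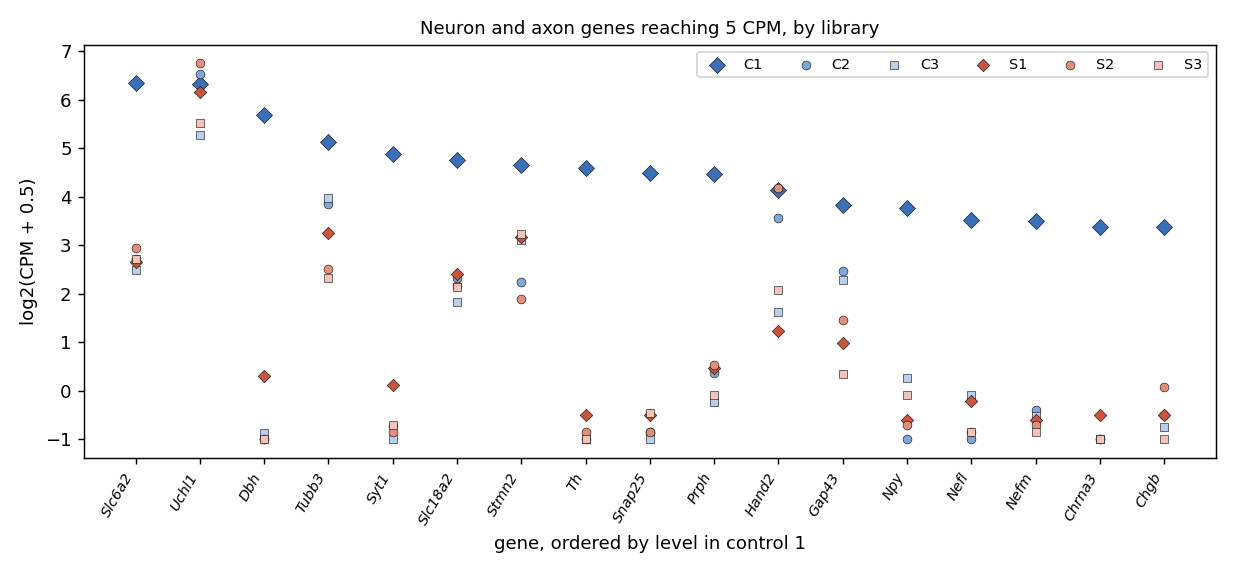
Level of the neuron and axon genes that reach 5 CPM in any library (x axis, ordered by control 1) as log2(CPM + 0.5) (y axis) in each of 6 libraries. Control 1 (large blue diamonds) is highest for every gene shown but Uchl1 and Hand2, while Th, Dbh, Snap25 and Syt1 lie near the floor of the scale in the other libraries (0.736 CPM at most) and Hand2, Tubb3 and Gap43 spread widely among them.

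Few of these neuronal genes entered the test between groups: 9 of the 24 passed the filter, which asks for reads in several libraries, and Th, Dbh, Snap25 and Syt1 were not among them. The counts over these 9 describe the genes that passed, not the list. Of the 9, 8 had lower levels in Sept2C111A recipients, 0 passed by edgeR and 2 were called lower by DESeq2, where 2.90% of all genes were. Those were Tubb3, a neuronal tubulin, at 21.3 ± 11.5 and 6.23 ± 2.41 CPM with a DESeq2 adjusted p of 0.0129, and Gap43, a growth cone protein also made by Schwann cells that have lost their axon, at 7.75 ± 5.24 and 1.51 ± 0.74 CPM with a DESeq2 adjusted p of 0.0116. In both genes every control library lay above every Sept2C111A library. Without control 1 the DESeq2 adjusted p was 0.0659 for Tubb3 and 0.0876 for Gap43 (and 0.184 and 0.141 without Sept2C111A library 3, 0.0711 for Tubb3 without library 2, 0.0953 for Gap43 without library 1), with edgeR log2 ratios of -1.22 and -1.64 in place of -1.77 and -2.36. The median log2 ratio of the tested list was -1.74 with all libraries and 0.16 without control 1, and the median over all genes was 0.00. Uchl1, a ubiquitin hydrolase of neurons and other cells, was at 70.1 ± 28.2 and 74.8 ± 31.2 CPM.

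Within the 8 genes, Sox10 served as the reference for likeness over the 6 libraries, on log2(CPM + 0.5). Ngfr ranked the 6 libraries as Sox10 did, with Pearson's r = 0.96 (exact permutation p = 0.00139, 0.00972 adjusted over the 7 relations) and Spearman's rho = 1.00 (exact permutation p = 0.00278, adjusted 0.0194). Leaving out control 1 and Sept2C111A library 2, the libraries farthest from the median of Sox10, gave r = 0.96 over 4 libraries, in which Ngfr ranged only from 1.17 to 1.89 CPM. Outside control 1 the 95% counting intervals of all libraries overlapped for Sox10 and for Ngfr, so their order there lies within counting error. Such a match was not particular to Ngfr, as Bcl2a1d, a myeloid gene, also gave rho = 1.00 with Sox10. Mbp gave r = 0.97 (exact permutation p = 0.00556, adjusted 0.0194) and rho = 0.89 (exact permutation p = 0.0333, adjusted 0.117), and r = 0.67 without those 2 libraries, so that much of its relation rests on them. Prx ran the other way, with r = -0.80 (exact permutation p = 0.0139, adjusted 0.0324) and rho = -0.83 (exact permutation p = 0.0583, adjusted 0.136), and r = -0.58 without them. S100b, Pmp22, Mal and Ncam1 gave r of -0.63, -0.58, 0.64 and -0.60, each with an adjusted exact permutation p of 0.232, and rho of -0.26, -0.54, 0.14 and -0.77, with adjusted exact permutation p of 0.768, 0.416, 0.803 and 0.180. Without those 2 libraries their r was 0.47, -0.22, -0.51 and -0.61. All these values come from the same 6 libraries and share their scaling.

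Of the 8 genes, 4 were highest in control 1 (Sox10, Mbp, Mal and Ngfr), where 25.0% of tested genes were, 3 in Sept2C111A library 2 (Prx, Pmp22 and Ncam1), where 12.5% were, and S100b in Sept2C111A library 1, where 10.1% were. The shares of control 2, control 3 and Sept2C111A library 3 were 5.82%, 24.8% and 21.8%. Beyond the gene lists, the 5 genes most like Sox10 in level over the 6 libraries included Adgrg3, Sirt7, F10 and Bcl2a1d, with r from 0.99 to 1.00 among 13856 genes compared. Adgrg3, an adhesion receptor of neutrophils, was at 46.4 CPM in control 1 and 1.99 to 8.46 CPM elsewhere. Bcl2a1d, a survival factor of myeloid cells, was at 22.2 CPM and 1.77 to 5.20 CPM, and F10, coagulation factor X, at 39.6 CPM and 1.55 to 5.14 CPM. Sirt7, a deacetylase, differed far less and ranged from 29.6 to 50.1 CPM.

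Other Schwann cell genes were read from lists beside the 8. Of 20 genes of myelinating Schwann cells 12 were tested, of which 11 had lower fitted levels in Sept2C111A recipients. Their median log2 ratio was -0.37, and neither tool called any (0 by edgeR, 0 by DESeq2). Egr2, which with Sox10 switches on the myelin genes and is also induced in macrophages, was at 32.5, 14.6 and 22.9 CPM in the controls and at 7.09, 13.6 and 4.45 CPM in the Sept2C111A libraries, without overlap, at an edgeR adjusted p of 0.316. Mpzl1, a membrane protein made in many tissues, and Cnp, an enzyme of myelin-forming glia, were at 41.5 ± 21.7 against 29.9 ± 3.26 CPM and at 25.7 ± 4.15 against 23.2 ± 4.91 CPM.

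The list of Schwann cell identity and of Schwann cells without myelin leaned the other way, with 11 of 16 tested genes higher, a median log2 ratio of 0.28 and 0 calls by either tool. Without control 1, 2 of 16 were lower and the median was 0.54, whereas without control 3 it was -0.02 with 9 of 18 lower, and without Sept2C111A library 1 it was 3.47e-04 with 8 of 17 lower. Scn7a, a sodium channel of Schwann cells without myelin, was at 52.7, 63.6 and 75.7 CPM in the controls and at 110.9, 86.4 and 83.8 CPM in the Sept2C111A libraries, without overlap, with a log2 ratio of 0.55 (SE 0.19, adjusted p = 0.316 by edgeR). Art3, an ADP-ribosyltransferase relative, also did not overlap, at 24.7 ± 12.8 and 48.8 ± 13.8 CPM. Cdh19, a glial cadherin, and L1cam, an axon-glia adhesion molecule, were among the 10 of 20 genes of this list that were highest in control 1, at 9.66 and 26.3 CPM against at most 5.62 and 12.3 CPM elsewhere.

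Genes of the Schwann cell repair response, which sets in after an axon is lost, gave 8 tested members of 10, with 4 lower and 4 higher and 0 passing by edgeR. DESeq2 called 2 lower, where 2.90% of all genes were, Runx2, a transcription factor better known from bone, at 19.9 ± 7.32 and 5.79 ± 1.25 CPM (DESeq2 adjusted p = 0.000864), and Lif, a cytokine, at 25.5 ± 17.9 and 4.48 ± 1.28 CPM (DESeq2 adjusted p = 0.00482). Without control 1 the DESeq2 adjusted p was 0.0202 for Runx2 and 0.0659 for Lif. Leaving out Sept2C111A library 1 or 3 also ended the call of Lif (DESeq2 adjusted p = 0.0693 and 0.0919). Tnc, a matrix protein, and Jun, the factor that drives the response, were at 467 ± 114 against 292 ± 155 CPM and at 153 ± 48.8 against 179 ± 47.7 CPM, and Shh and Olig1 were at no more than 0.315 CPM in any library. These genes are also active in smooth muscle, fibroblasts or macrophages, whose part was not tested.

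Ligands and receptors of the neurotrophin and neuregulin pathways gave 16 tested members of 18, 9 lower and 7 higher, 0 passing by edgeR and 1, lower, by DESeq2, where 2.90% of all genes were. Without control 2 DESeq2 called 6 of the 16, where 12.0% of all genes were called. The gene called with all libraries was Nrg1, the neuregulin that tells Schwann cells how much myelin to make and that other tissues also secrete, at 5.75, 2.26 and 3.71 CPM in the controls and 0.420, 0.939 and 0.334 CPM in the Sept2C111A libraries. Its log2 ratio was -2.78 (SE 0.56 by edgeR, DESeq2 adjusted p = 0.00125), and the DESeq2 adjusted p stayed between 0.000134 and 0.0340 in the fits that left out 1 library each. Its receptor pair on Schwann cells, Erbb2 and Erbb3, were at 22.1 ± 3.55 against 24.8 ± 1.80 CPM and at 3.43 ± 1.73 against 3.81 ± 0.70 CPM. Ntrk3, the receptor of neurotrophin-3, was at 73.0 ± 57.2 and 161 ± 54.6 CPM. Maged1, an intracellular partner of Ngfr, was at 342 ± 99.0 and 293 ± 42.4 CPM.

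Perineurial cells, which sheathe the nerve bundle, were represented by 6 genes, of which 5 were tested and 0 passed by either tool. Slc2a1, the glucose transporter of perineurium and of many activated cells, was at 176, 54.8 and 57.0 CPM in the controls and at 39.1, 51.4 and 34.4 CPM in the Sept2C111A libraries, without overlap and with control 1 again apart. Itgb4, an integrin of the nerve sheath and of epithelia, was at 25.8 ± 4.60 and 31.4 ± 11.4 CPM. Leaving out 1 library changed the DESeq2 counts of several lists. Without control 2, where 12.0% of all genes were called, they were 6 of 13 for neuron and axon, 2 of 17 for Schwann cell identity, 1 of 13 for myelinating Schwann cells and 1 of 5 for perineurial cells. The neuron and axon counts in this paragraph describe the genes that passed the filter, not the list. Npy and Chga, both called there, were not tested with all 6 libraries and passed through controls 1 and 3. Npy held 236 and 14 counts in these, Chga 72 and 93, and neither more than 8 in a Sept2C111A library. Slc6a2 and Prph, also called, were high in control 1 alone. Without control 1, where 2.28% of all genes were called, neuron and axon gave 0 of 9 and the repair response 1 of 8. Without control 3, where 2.36% of all genes were called, neuron and axon gave 3 of 11 (Tubb3, Gap43 and Prph). Dbh and Syt1, tested there but not with all 6 libraries, were like Prph high in control 1 alone. Without Sept2C111A library 1, where 1.79% of all genes were called, neuron and axon gave 2 of 12 and Schwann cell identity 1 of 17. Without library 2, where 4.60% were called, neuron and axon gave 2 of 13 and myelinating Schwann cells 1 of 13. Without library 3, where 0.906% were called, neuron and axon gave 1 of 14. Chga was called in each of these last fits, and it passed the filter there through controls 1 and 3.

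Genes of other cells also differed between libraries. Dcn, the collagen-binding decorin of fibroblasts, was at 1322, 1763 and 1661 CPM in the controls and at 3101, 2516 and 4489 CPM in the Sept2C111A libraries (DESeq2 adjusted p = 0.00653), and 5 of the 10 adventitial fibroblast genes were called higher by DESeq2, where 1.10% of all genes were. Of the 10 macrophage genes, 1 was called lower by DESeq2, where 2.90% of all genes were. That was Itgam (DESeq2 adjusted p = 0.0177), whose high level in control 1 is given above. By contrast C1qb, a complement gene of resident macrophages, was lowest in control 1, at 135.6 CPM against 216 to 485 CPM elsewhere. Fabp4 of fat cells ran from 552 CPM in control 3 to 2100 CPM in Sept2C111A library 1. Acan of cartilage reached 367 CPM in control 3 against 52.7 to 127 CPM elsewhere, and Ckm of skeletal muscle 45.3 CPM in Sept2C111A library 3 against at most 3.18 CPM elsewhere. Pecam1 of endothelium ran from 231 to 585 CPM, Cd4 of T cells from 1.93 to 12.2 CPM, and Mitf of pigment cells from 18.1 to 29.9 CPM. What these cells contributed to the 8 genes was not tested.

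**Figure D4:**
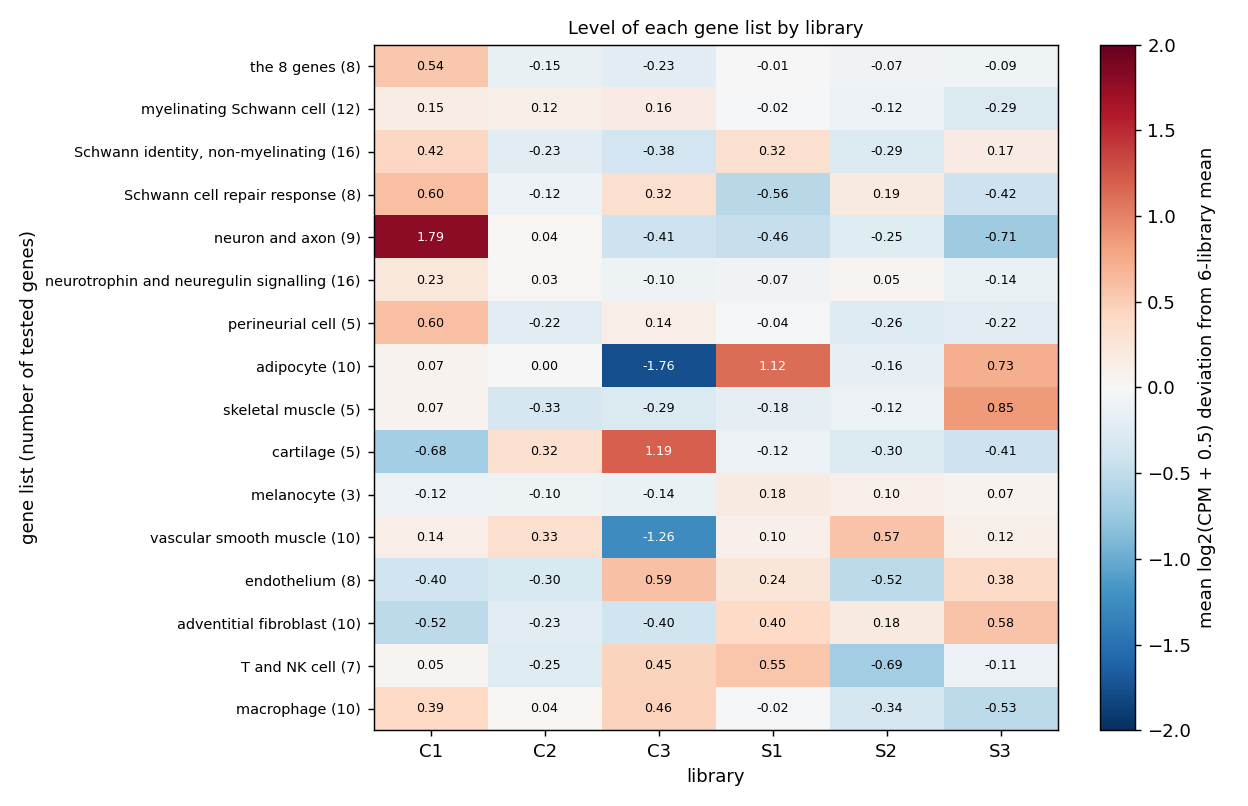
Level of each gene list (rows, with the number of tested genes) in each library (columns) as the mean of log2(CPM + 0.5) relative to each gene's mean over 6 libraries, red above and blue below. The neuron and axon list reaches 1.79 in C1 and lies between -0.71 and 0.04 elsewhere, the vascular smooth muscle list falls to -1.26 in C3, and adventitial fibroblast genes are above 0 in the 3 S libraries and below 0 in the 3 C libraries.

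Read as a gauge of nerve in each sample, the mean of the 8 genes on the log2 scale relative to their own averages stood at 0.54 in control 1, -0.15 in control 2 and -0.23 in control 3, with the Sept2C111A libraries at -0.01, -0.07 and -0.09. The difference of the group means, -0.11, was smaller than the SD of the controls, 0.42. It turned to 0.14 without control 1, and to 0.13 when the list of Schwann cell identity replaced the 8 genes. With the myelinating list in their place it was -0.29, with a pooled SD of the library scores within groups of 0.10. There the groups did not overlap, with the controls at 0.12 to 0.16 and the Sept2C111A libraries at -0.29 to -0.02. The gauge is an average of genes that ran in opposite directions, and 4 of the 8 were highest in control 1 while Prx and S100b were lowest there. The melanocyte list, included because Sox10 also marks pigment cells, held 3 tested genes of 6, all 3 with higher fitted levels in Sept2C111A recipients and 0 passing by either tool. Tyr was at 0.841 to 2.21 CPM, in the range of Sox10, Mlana at 0.223 to 1.84 CPM, and Tyrp1 at no more than 0.0525 CPM. The part of pigment cells in Sox10 was not tested.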

How the data were processed

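Whole-aorta RNA was captured on oligo(dT) beads, per the labels' protocols, in 3 libraries from control recipients and 3 from Sept2C111A recipients, and the design text gives 3 mice per group. The authors deposited expected counts per gene, 1 file per library, not normalised. Per the submitters' processing notes these involved Bowtie2, RSEM 1.3.1, DESeq2 1.4.5 and mm10, and the sources used here do not give the annotation, filters or strand. Shared reads are divided between genes by RSEM, and 34.6% to 35.9% of values per library were fractional. The column heading of 1 Sept2C111A file carried another library number, and GEO's record of the sample was followed.

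After rounding, the test was edgeR 4.0.16 under R 4.3.3 (filterByExpr with a minimum count of 10, leaving 14466 genes, TMM scaling, two-sided quasi-likelihood test, group as single factor). A gene passed at an adjusted p (Benjamini-Hochberg) under 0.05, and each SE was derived from the log2 ratio and the F statistic. DESeq2 1.42.0 and limma-voom (limma 3.58.1) with sample weights were alternatives, beside another scaling, other filters, a replicate block and leaving out each library. The edgeR, DESeq2 and limma-voom p-values judge a group difference against the spread between libraries of a group. The exact permutation p-values run over all pairings of the 6 libraries. Replicates of a group differed beyond sampling noise, with chi-square per degree of freedom of at least 43.8. The edgeR, DESeq2 and limma-voom fits were tested on simulated counts. The members and lists were chosen with earlier results of these data known. Named are the 8 genes, from each nerve-related list the 2 of highest mean CPM and those called by either tool, from each other cell type list the 1 of highest mean CPM, and the 5 genes outside the lists most like Sox10 (mean CPM of at least 1, predicted genes skipped); others were chosen after their values were seen, and some genes are not reported here. Gene positions and exon lengths are from GENCODE vM21 (mm10, 1-based), where all 8 matched.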

Additional observations from a re-analysis of the deposited data

How the results depend on the processing

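With all 6 libraries edgeR called 0 genes and 0 of the 8 members, and this held under RLE size factors, without a low-count filter and with a mean count of at least 50 (where Sox10 was not tested). DESeq2 called 575 genes and 0 members, with no p-value for Ngfr. Leaving out each library in turn gave 0 genes and 0 members by edgeR. By DESeq2, chosen as an alternative after seeing the data, it gave 333, 1769 and 331 genes without control 1, 2 and 3, and 248, 664 and 133 genes without Sept2C111A library 1, 2 and 3, and 0 to 4 members: 4 without control 2 (Mbp and Ngfr lower, Prx and Ncam1 higher, where 12.0% of all genes were called), 2 without control 3 (S100b higher, Ngfr lower) and 0 in the rest. Both calls of Ngfr came from fits that kept control 1, where it was far above every other library. No member's log2 fold change changed sign in any alternative. The gauge difference ran from -0.24 to 0.14 when 1 library was left out, the highest without control 1. Replicate numbers are shared between the groups, but same-numbered libraries did not deviate together (correlations of 0.02, 0.13 and -0.17), and with the replicate block edgeR called 0 genes and 0 members. Depth limits Sox10, at 20 to 70 reads, and Ngfr, at 16.3 to 36.3 reads outside control 1.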
